A study of Rattus norvegicus with 132 samples.

Results

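The jejunum, the middle stretch of the small intestine, is one of the tissues that abdominal radiotherapy injures first. Its epithelium was profiled here by RNA-seq in rats at day 4 after irradiation and in rats that were not irradiated. The groups compared hold 12 of the 132 samples of a study of compound Kushen extracts. They are 6 irradiated rats that received no further treatment and 6 rats neither irradiated nor treated, chosen by their sample titles. All were Sprague Dawley rats, an outbred laboratory stock, and each library is labelled as a biological replicate from its own rat. The irradiated rats had received 5 fractions of 4 Gy to the abdomen, given between day 0 and day 4. Whether day 4 was counted from the first or from the last fraction cannot be told from the labels, and the non-irradiated rats carry no collection day. No age, sex or weight is given. Another 3 groups serve as reference: 6 untreated irradiated jejunum samples of day 7, 6 jejunum samples of day 4 from irradiated rats given water by mouth as an oral vehicle, and 12 colon samples of the same 2 conditions. Jejunum groups given a Kushen extract by mouth (day 4 and day 7) or the oral vehicle (day 7) also entered the fit. They are not compared here, but they help set the spread between rats behind each p-value.

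The intestinal epithelium is renewed from stem cells at the base of the crypts. Their daughters divide in the lower crypt, commit to the absorptive or a secretory lineage, and move onto the villus, where enterocytes digest and absorb food until they are shed. Ionising radiation breaks DNA and activates the transcription factor p53, which induces genes of cell cycle arrest and cell death, chiefly in dividing crypt cells. When the stem cell compartment is depleted, surviving crypt cells can enter a regenerative, partly fetal-like state before the normal crypt is restored.

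Total counts ran from 17725569 to 19738574 reads per library. Levels are given as CPM (a read count divided by the TMM-scaled library total and set to a fixed total for all libraries), as lowest, highest and median of the 6 rats of a group. Fold changes are log2 values of day 4 over non-irradiated jejunum with their standard error (SE), from edgeR's quasi-likelihood test with Benjamini-Hochberg adjustment over all 12501 genes tested, and a gene is said to have risen or fallen when its adjusted p was under 0.05. Libraries 1 to 3 of each group belong to one library series and libraries 4 to 6 to another, as the first digit of the library name shows. The series entered the fit as a covariate, and values within each series come from a second fit in which each group was split by series. Genes of the brush border, which define jejunal enterocytes, summed to 52140–71240 CPM in the non-irradiated libraries, against 172–271 CPM for fibroblast and matrix genes and 6.88–23.6 CPM for endothelial genes. These are bulk samples, in which fewer cells of a type and less RNA per cell cannot be told apart.

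Expression differed widely between the groups. Of the 12501 genes, 5495 passed the test, which is 44.0% of those tested. Expression of 3128 genes (25.0%) rose and that of 2367 (18.9%) fell. At least 2-fold changes were seen for 1861 of the genes that rose and for 855 of those that fell. All 6 irradiated libraries lay above all 6 non-irradiated ones for 697 genes (5.58%) and below them for 559 genes (4.47%). With only the 12 libraries compared in the fit, 3496 of 11167 genes passed. In the main fit the median log2 fold change over all genes tested was 0.054. The same test was read over lists of genes for the pathways and cell types of the gut, which hold 1078 different members: 852 were tested, 173 were too low and 53 had no entry. Counts of a list are to be read against the shares of all genes, 25.0% that rose and 18.9% that fell. Where a list is said below to have no member that rose or fell, none passed in DESeq2 either, and none had an unadjusted p under 0.05 in that direction in edgeR except 1 inflammatory gene that was lower.

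Along the main axis of variation, the irradiated rats differed among themselves far more than the controls did. On the first principal component of the 12 libraries, which held 52.09% of the variance, the non-irradiated libraries lay between -62.75 and -46.38. Irradiated libraries 1 and 4 lay at 102.1 and 105.3, libraries 5 and 6 at 67.31 and 56.28, and libraries 2 and 3 at -8.34 and 12.91, nearest the controls. Of the genes that rose, 94.1% lay above every non-irradiated library in irradiated library 4, but only 46.2% did so in irradiated library 2. Many of the values below follow this order of the rats. For some lists the controls spread more widely instead. Goblet cell genes summed to 2980–12580 CPM in controls and 1842–2981 CPM at day 4, and T cell, macrophage and mast cell lists also spread more in controls. The library series mattered as well: among non-irradiated libraries alone, 2144 genes (17.2%) differed between the series, and for 1557 genes (12.5%) the irradiation effect itself differed between them. Reads from the mitochondrial genome took 5.82% to 7.25% of the counts in the non-irradiated libraries of series 1, 12.46% to 20.91% in those of series 2 and 7.19% to 23.48% in the irradiated ones.

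**Figure D1:**
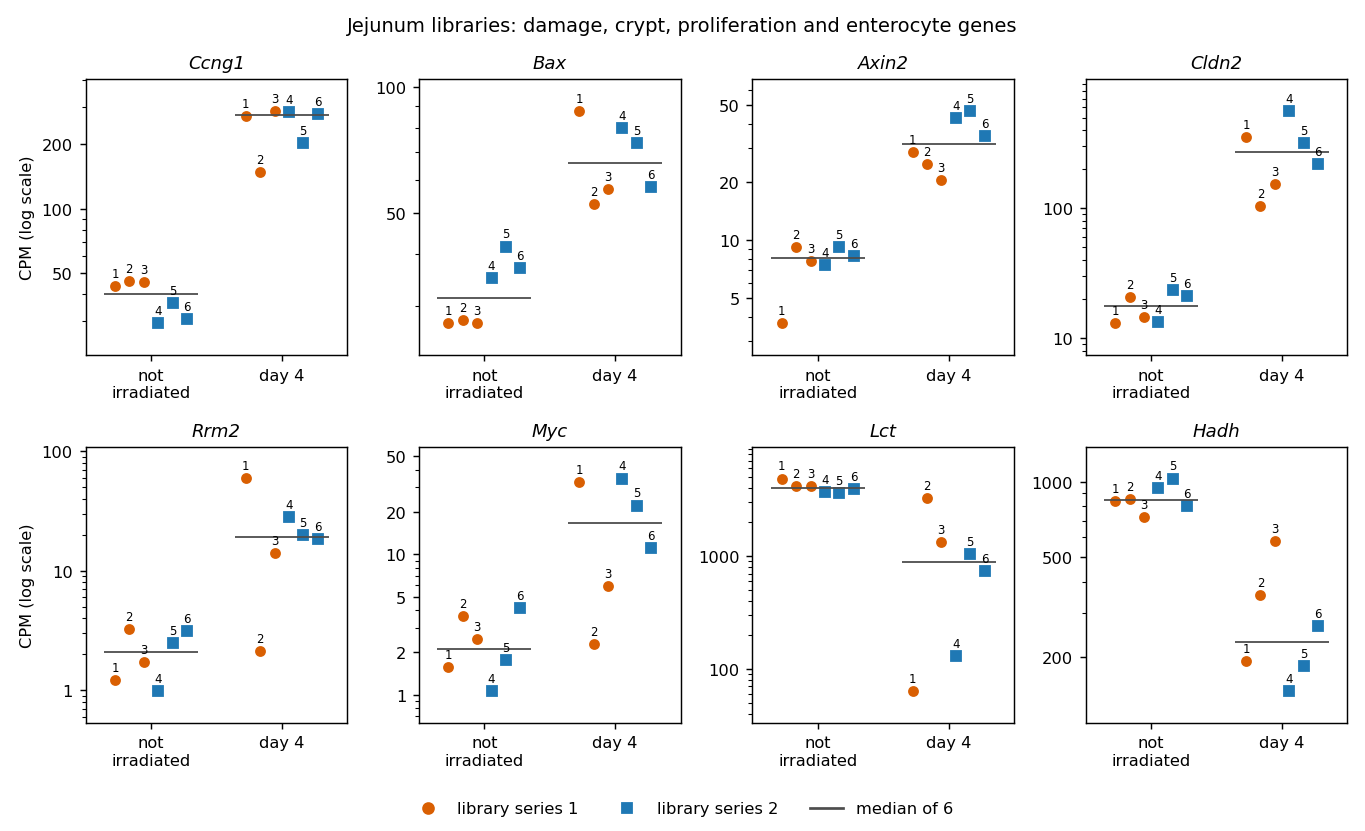
Levels of Ccng1, Bax, Axin2, Cldn2, Rrm2, Myc, Lct and Hadh in the 6 non-irradiated and 6 day 4 jejunum libraries, in CPM on a log axis; points are single rats numbered by replicate, colour and shape give the library series and lines the median of 6. Ccng1, Bax, Axin2 and Cldn2 lay above every control in all 6 irradiated rats, while Rrm2 and Myc stayed within the control range in irradiated rat 2 and Lct spanned 63.8 to 3286 CPM.

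Some targets of p53 lay above every control in all 6 irradiated rats: 6 of 18 arrest genes and 5 of 15 death genes. Ccng1, which encodes the p53-induced cyclin G1, lay at 29.3–46.2 CPM (median 39.9) without irradiation and at 148–287 CPM (median 273) at day 4. The groups did not overlap, and the log2 fold change was 2.66 ± 0.23 (adjusted p = 8.4e-11). Phlda3, a p53 target that restrains Akt signalling, rose from 0.0694–1.10 CPM (median 0.412) to 10.0–65.2 CPM (median 38.2), a log2 fold change of 6.20 ± 0.59 (adjusted p = 7.1e-10). Eda2r, a p53-induced receptor of the TNF receptor family, had no count in any non-irradiated library and reached 1.06–7.64 CPM (median 4.15) after irradiation. Set against a floor of 3 counts over the 6 control libraries, this is at least 132-fold higher. The pro-death gene Bax was higher by a smaller factor, 2.10-fold, and again without overlap: 27.3–41.6 CPM (median 31.3) against 52.7–87.8 CPM (median 65.7).

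Among the p53 genes of cell cycle arrest and feedback, 13 of 18 tested members rose and 2 fell, with a median log2 fold change of 0.71. Within the list, 8 rose and 1 fell within series 1, and 11 rose and 1 fell within series 2. Cdkn1a, the p21 inhibitor of cyclin-dependent kinases, rose only modestly, from 184–281 CPM (median 244) to 316–477 CPM (median 381), with a log2 fold change of 0.70 ± 0.15 (adjusted p = 0.00055). Mdm2, the ubiquitin ligase that removes p53, behaved likewise at 0.88 ± 0.15 (adjusted p = 1.6e-05). Both were already well expressed in the control jejunum. Plk2, a p53-induced kinase, rose 5.16-fold and Gtse1, a regulator of p53 in the G2 phase, 16.5-fold. The 2 members that fell were Sesn1 and Gadd45a. Of the p53 death genes, 7 of 15 rose and 1, Ei24, fell, with a median log2 fold change of 0.30. Besides Bax and Eda2r these included Aen, an apoptosis-enhancing nuclease, at 8.38–30.7 CPM (median 20.5) against 2.35–5.68 CPM (median 4.19), and Pidd1, a death-domain adaptor, with a log2 fold change of 1.43 ± 0.23 (adjusted p = 1.1e-05). Fas, Bbc3 (Puma) and Perp did not pass the test. Among genes of DNA damage signalling and repair, 9 of 24 tested members rose and 0 fell, with a median of 0.49, and Xrcc1, a scaffold of single-strand break repair, had a log2 fold change of 0.88 ± 0.19 (adjusted p = 0.0005).

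Crypt genes rose on the whole, but not uniformly. In the list of crypt stem cell genes, 14 of 20 tested members rose and 1 fell, with a median log2 fold change of 1.5. Within this list, 12 rose and 0 fell within series 1, and 11 rose and 3 fell within series 2. Axin2, a feedback inhibitor and target of Wnt signalling, lay at 3.71–9.22 CPM (median 8.04) in controls and at 20.5–46.7 CPM (median 31.4) at day 4, with no overlap and a log2 fold change of 2.10 ± 0.18 (adjusted p = 1.1e-10). Sox9, a transcription factor of crypt progenitors, rose 9.41-fold, from 0.731–5.48 CPM (median 1.96) to 6.10–52.6 CPM (median 19.2). The crypt sodium-potassium-chloride cotransporter Slc12a2 rose least in rats 2 and 3, to 179, 30.0, 49.9, 189, 146 and 101 CPM in irradiated rats 1 to 6, against 5.83–22.6 CPM (median 11.4) in controls. Aqp4, a water channel of the crypt base, had a log2 fold change of 2.66 ± 0.48 (adjusted p = 4.9e-05).

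The stem cell markers proper gave no common picture. Ascl2, a transcription factor of Lgr5 stem cells, rose at low levels, from 0.0609–1.18 CPM (median 0.220) to 0.407–2.23 CPM (median 1.28), with a log2 fold change of 1.75 ± 0.57 (adjusted p = 0.013). Lgr5 itself, a receptor that amplifies Wnt signals, did not pass the test at 1.04 ± 0.50 (adjusted p = 0.086). It passed without irradiated library 3, at 1.26 with an adjusted p of 0.035. Olfm4, a secreted glycoprotein of crypt base cells, went the other way: it lay at 5.60–33.0 CPM (median 9.85) in controls and at 10.6, 0.163, 4.60, 1.93, 0.458 and 0.201 CPM in irradiated rats 1 to 6. Its fall of -2.51 ± 0.88 (adjusted p = 0.02) rested in part on control library 6, without which the value was -2.01 and the adjusted p 0.061. Only irradiated rat 1 lay within the control range.

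Many genes of cell division rose, and the ones shown here were not raised in irradiated rat 2. Of the mitosis genes, 20 of 24 rose and none fell, with a median log2 fold change of 1.38. Among genes of DNA synthesis, 16 of 26 rose and 1 fell. Rrm2, the small subunit of ribonucleotide reductase, which supplies deoxynucleotides, lay at 0.985–3.23 CPM (median 2.10) in controls and at 59.3, 2.12, 14.1, 28.1, 19.8 and 18.5 CPM in irradiated rats 1 to 6. Rat 2 fell inside the control range and rat 1 lay highest. The log2 fold change was 3.48 ± 0.56 (adjusted p = 1.1e-05). Ccnb1, the cyclin of mitotic entry, was likewise lowest in rat 2 and highest in rat 1, with 2.12 CPM in rat 2 and 35.1 CPM in rat 1, and a log2 fold change of 2.03 ± 0.49 (adjusted p = 0.0012). Mki67, a general marker of cycling cells, ranged from 5.29 to 75.6 CPM after irradiation against 11.5–26.4 CPM (median 14.3) before, and did not pass the test (log2 0.70, adjusted p = 0.15). It passed when rat 2 was left out, at 0.91 with an adjusted p of 0.038. Pcna, the replication clamp, did not pass either (log2 0.33, adjusted p = 0.35). These counts lean on 1 library: without irradiated library 1, 8 mitosis genes and 10 replication genes rose. Of the mitosis genes, 18 rose within series 1 and 2 rose within series 2, but the difference between the series passed edgeR's test for none (1 at an unadjusted p under 0.05). With each series fitted alone 6 and 11 rose.

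Genes of ribosome biogenesis rose as well. Among ribosome biogenesis genes and Myc, 21 of 22 tested members rose and 0 fell, with a median log2 fold change of 1.63; 19 rose within series 1 and 15 within series 2. Myc, the transcription factor that drives this programme, lay at 1.06–4.16 CPM (median 2.13) in controls and at 32.7, 2.28, 5.95, 34.8, 22.3 and 11.0 CPM in irradiated rats 1 to 6. Rat 2 again lay among the controls, and the log2 fold change was 2.86 ± 0.49 (adjusted p = 2.6e-05). Rrp12, a ribosome export factor, rose 5.86-fold, and Nhp2, a core protein of small nucleolar particles that modify ribosomal RNA, rose 4.35-fold.

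**Figure D2:**
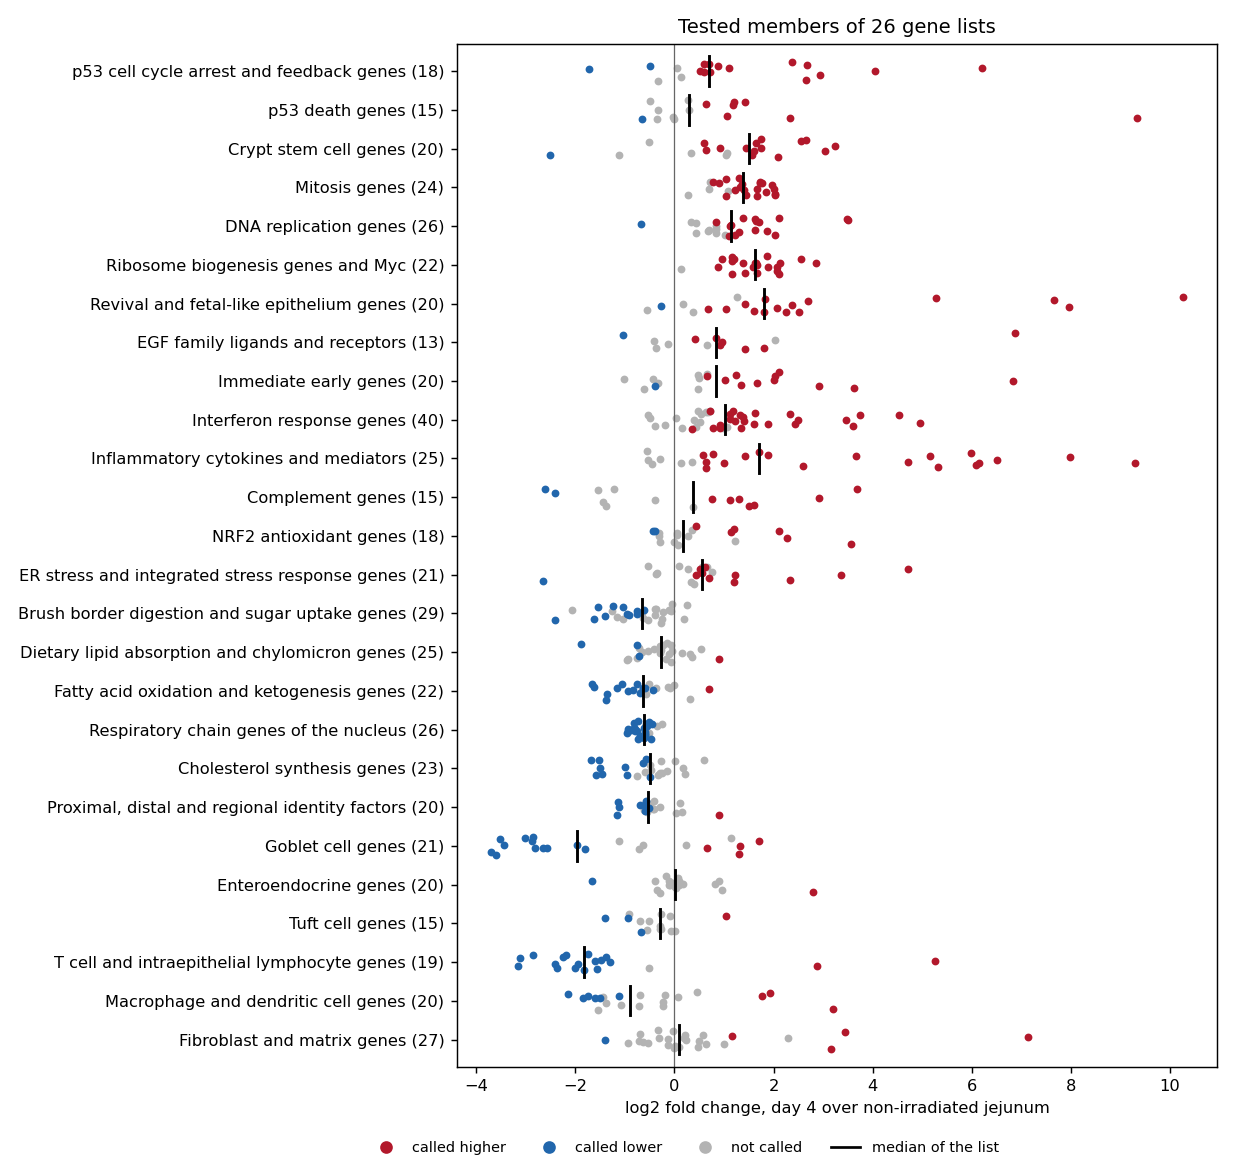
Log2 fold changes of day 4 over non-irradiated jejunum for every tested member of 26 gene lists (number tested in brackets); red and blue points passed the test upward and downward, grey points did not, and the black bar is the list median. Ribosome, mitosis, regeneration and inflammatory genes lie mostly to the right, goblet cell, respiratory chain and T cell genes mostly to the left; points of genes without counts in controls, such as Eda2r, depend on the prior count of the fit.

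Genes of the regenerative, fetal-like state rose, some from very low levels. In the revival list, 15 of 20 tested members rose and 1 fell, with a median log2 fold change of 1.81. Within it, 8 rose and 0 fell within series 1, and 16 rose and 0 fell within series 2. Ly6al, of the Ly6 family of surface proteins, lay at 0.486–1.04 CPM (median 0.587) in control jejunum. In irradiated rats 1 to 6 it reached 1228, 179, 274, 1847, 832 and 773 CPM, far above every control even in rat 2. The log2 fold change was 10.26 ± 0.86 (adjusted p = 7.3e-11). Its relative Ly6i rose from 0–0.183 CPM (median 0) to 2.33–29.0 CPM (median 13.1). Clu, which encodes clusterin and marks revival stem cells in the mouse, lay at 1.58, 1.05, 1.34, 0.152, 0.355 and 1.32 CPM in control rats 1 to 6 and at 62.1, 3.09, 5.70, 134, 52.5 and 25.0 CPM in the irradiated ones. The highest levels stood again in rats 4 and 1, and the log2 fold change was 5.28 ± 0.93 (adjusted p = 3.6e-05). The only member that fell was the lysosomal protease gene Ctsd.

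Plat, which encodes tissue-type plasminogen activator, was among the most strongly raised genes at high level: 3.69–9.49 CPM (median 5.45) in controls and 1264, 234, 183, 2130, 1123 and 1063 CPM in irradiated rats 1 to 6. The log2 fold change was 7.14 ± 0.88 (adjusted p = 1.7e-07). Pinlyp, which encodes an inhibitor of phospholipase of the Ly6/PLAUR protein family, had no control count and lay at 3.58–30.3 CPM (median 17.1) after irradiation, at least 529-fold higher. Cldn2, the claudin that forms cation-permeable pores between crypt cells, rose without overlap from 13.0–23.3 CPM (median 17.6) to 103–566 CPM (median 271), a log2 fold change of 3.97 ± 0.41 (adjusted p = 5.0e-09). Cd59, which blocks the complement attack complex on cell surfaces, had the smallest p-value of those named here: 19.7–31.5 CPM (median 22.6) against 152–542 CPM (median 336), a log2 fold change of 3.68 ± 0.29 (adjusted p = 1.7e-11). Both moved in all 6 rats, though Cd59 moved more within series 2 than within series 1 (adjusted p of the difference 0.021).

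Of the 8 tested growth factor ligands of the EGF family 5 rose, the other 3 did not pass the test, and the receptor partner Erbb2 fell. In the list of ligands and receptors, 7 of 13 tested members rose and 1 fell. Areg, the ligand amphiregulin, lay at 12.8–32.6 CPM (median 23.9) in controls and 44.6–111 CPM (median 78.8) at day 4, without overlap, for a log2 fold change of 1.80 ± 0.26 (adjusted p = 2.1e-06). Ereg (epiregulin) rose 2.7-fold. Epgn (epigen) had no count in controls and 0.490–1.36 CPM (median 0.645) at day 4, at least 22.7-fold higher. Erbb2, the receptor subunit that has no ligand of its own, fell from 329.9–400.4 CPM (median 343) to 107–246 CPM (median 167), a log2 fold change of -1.04 ± 0.21 (adjusted p = 0.00023). Genes that report on or restrain ERK signalling rose: Etv4, an ETS transcription factor, from 0.0609–0.379 CPM (median 0.188) to 3.42–50.9 CPM (median 18.3), Spry4, a Sprouty inhibitor, 12.4-fold, and Dusp6, an ERK phosphatase, 4.01-fold. Over the list of immediate early genes and these outputs, 11 of 20 tested members rose and 1 fell. Among BMP and Wnt signal genes, 3 of 15 rose and 3 fell. Those that rose were Bmp2, the BMP antagonist Chrd and Nkd1, and those that fell were Smad6, Smad7 and Id3. Bmp2, a differentiation signal of the villus, rose 3.68-fold, and Smad6, an inhibitor of that pathway, fell from 10.2–13.3 CPM (median 11.5) to 1.13–5.09 CPM (median 1.92), with a log2 fold change of -2.20 ± 0.36 (adjusted p = 1.5e-05).

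Some brush border genes of enterocytes fell, by amounts that differed widely among the 6 rats. The list summed to 16340–65720 CPM at day 4 against 52140–71240 CPM in controls, and irradiated rats 2 and 3 lay inside the control range. Of the brush border genes, 11 of 29 fell and none rose, with a median log2 fold change of -0.65. Without irradiated library 1, and likewise without library 4, 7 fell. Within series 1 none passed, and within series 2 3 fell. Lct, which encodes the milk sugar enzyme lactase, lay at 3641–4884 CPM (median 4051) in controls and at 63.8, 3286, 1328, 130.2, 1049 and 732 CPM in irradiated rats 1 to 6. All 6 values lay below the controls, but the log2 fold change of -2.06 did not pass the test (adjusted p = 0.095). Slc2a2, the basolateral glucose transporter GLUT2, was likewise lowest in rats 1 and 4, with 85.3, 505, 612, 118, 140.3 and 309.6 CPM against 655–1224 CPM (median 813), and passed with -1.62 ± 0.50 (adjusted p = 0.0088). Slc2a5, the fructose transporter, fell 5.30-fold. Its control levels also parted by series, 353 to 498 CPM in series 1 and 94.1 to 137 CPM in series 2. Of the structural genes, Myo1a, the brush border myosin, had a log2 fold change of -0.91 ± 0.28 (adjusted p = 0.0081) and Ush1c, a microvillar linker, -0.76 ± 0.23 (adjusted p = 0.0073).

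Genes of nutrient uptake gave no common direction, and few of the lipid genes passed the test. Scarb1, a receptor for high-density lipoprotein and dietary lipid, fell in all 6 rats, from 672–963 CPM (median 819) to 105–309 CPM (median 241), a log2 fold change of -1.88 ± 0.26 (adjusted p = 8.7e-07). Apoc2, a lipoprotein component, rose from 1007–1596 CPM (median 1259) to 2160.4–2706 CPM (median 2403), whereas Apoa4, the apolipoprotein of chylomicrons, did not pass the test (log2 0.32, adjusted p = 0.55). Over the dietary lipid list, 1 of 25 tested members rose and 3 fell, while 25.0% of all genes tested rose and 18.9% fell. In that list 1 fell when irradiated library 1, 4 or 5 or control library 5 was left out, and 6 when irradiated library 2 was. Fgf19, the ortholog of mouse Fgf15 and normally a bile acid-induced hormone of the ileum, had 1 count in the controls and 3743 after irradiation, a ratio of 3533, with an exact 95% counting interval from 634 to 139590. It was high in only 4 of the 6 irradiated rats: rats 1 to 6 held 27.6, 0.651, 0.0613, 72.5, 77.4 and 50.3 CPM. Tfrc, the transferrin receptor through which dividing cells take up iron, rose 3.21-fold. S100g, the vitamin D-dependent calcium carrier calbindin-D9k, fell, with a log2 fold change of -0.73 ± 0.39 (adjusted p = 0.16) within series 1 and -2.64 ± 0.41 (adjusted p = 1.7e-05) within series 2. Its controls lay at 86.4, 127, 98.0, 454, 349 and 180.2 CPM, higher in series 2. Among drug metabolism genes, 6 of 25 tested members rose and 5 fell, near the shares of all genes. Ces2c, a carboxylesterase, rose without overlap from 106–232 CPM (median 159.6) to 408–1150.5 CPM (median 614).

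Transcription factors of small intestinal identity were lower. In the list of regional identity factors, 1 of 20 tested members rose and 8 fell. Within series 1, 1 rose and 2 fell, and within series 2, 1 rose and 9 fell. Hnf4a, a master regulator of enterocyte genes, lay at 506–839 CPM (median 599.7) in controls and 309–544 CPM (median 375) at day 4, a log2 fold change of -0.70 ± 0.12 (adjusted p = 2.8e-05). Cdx1, a caudal-type homeobox factor, fell from 13.2–19.3 CPM (median 17.1) to 2.44–11.4 CPM (median 7.92), with a log2 fold change of -1.14 ± 0.26 (adjusted p = 0.00075) and no overlap. Nr1i2, the xenobiotic receptor PXR, fell 2.00-fold. Isx, the intestinal homeobox factor that represses vitamin A uptake, was the only member of the list that rose, with a log2 fold change of 0.90 ± 0.16 (adjusted p = 2.9e-05).

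Nuclear genes of mitochondrial energy supply fell in the pooled fit. Among nuclear genes of the respiratory chain, 23 of 26 fell and none rose, with a median log2 fold change of -0.61. The count came from series 2, within which 25 fell, while 0 fell and 1 rose within series 1. Ndufs3, a core subunit of complex I, had a log2 fold change of -0.31 ± 0.23 (adjusted p = 0.32) within series 1 and -1.46 ± 0.23 (adjusted p = 2.1e-05) within series 2, and Atp5f1a, the alpha subunit of the ATP synthase core, lay at 811–1971 CPM (median 957) against 1929.8–2323 CPM (median 1990.2). None of the 13 genes encoded by mitochondrial DNA passed the test in edgeR's pooled fit, none had an unadjusted p under 0.05, and none passed in DESeq2. Within series 1 7 of them rose and within series 2 2 fell. The control levels of all 13 were higher in series 2 than in series 1. Among fatty acid oxidation and ketone body genes, 1 of 22 tested members rose and 13 fell, with a median of -0.64. Within series 1, 1 rose and 3 fell (median -0.29), and within series 2, 1 rose and 12 fell (median -0.89). The difference between the series passed the test for 0 members. Hadh, a dehydrogenase of the beta-oxidation spiral, lay at 721–1030.2 CPM (median 846) in controls and 193, 352, 581, 147, 185 and 265 CPM in irradiated rats 1 to 6, below every control, with a log2 fold change of -1.66 ± 0.32 (adjusted p = 0.00013). The exception, Cpt1a, the entry enzyme of mitochondrial fatty acid oxidation, rose, with a log2 fold change of 0.70 ± 0.18 (adjusted p = 0.0019).

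Cholesterol synthesis genes were lower as well. In that list, 0 of 23 tested members rose and 10 fell, with a median of -0.50; 16 fell when irradiated library 1 was left out. Within it, 1 rose and 3 fell within series 1, and 0 rose and 15 fell within series 2, and for 6 members the effect differed between the series. Fdft1, the squalene synthase that commits the pathway to sterols, fell without overlap from 36.3–65.8 CPM (median 46.2) to 11.6–21.7 CPM (median 14.7), a log2 fold change of -1.57 ± 0.21 (adjusted p = 4.9e-07). Srebf2, the transcription factor that switches the pathway on, fell 1.95-fold.

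Goblet cell genes fell in both library series, from control levels that themselves differed several-fold between the series. In the goblet list, 4 of 21 tested members rose and 12 fell, with a median log2 fold change of -1.96. Within it, 1 rose and 13 fell within series 1, and 4 rose and 7 fell within series 2; for 9 members the fall was larger within series 1, and 11 had lower control levels in series 2. Muc2, which encodes the gel-forming mucin of the intestinal mucus layer, lay at 3436, 3136, 3737, 569, 460.2 and 506 CPM in control rats 1 to 6. The irradiated rats held 157, 98.9, 271, 223, 96.6 and 183 CPM, with no overlap. The log2 fold change was -4.29 ± 0.47 (adjusted p = 5.5e-07) within series 1 and -1.61 ± 0.42 (adjusted p = 0.0035) within series 2, and the difference between the series passed the test (adjusted p = 0.0044). Atoh1, the transcription factor that commits progenitors to the secretory lineage, lay at 32.1, 36.2, 43.9, 4.24, 5.46 and 6.18 CPM in controls and 3.88, 1.38, 5.15, 1.98, 1.90 and 2.81 CPM after irradiation. It fell by -3.41 ± 0.49 (adjusted p = 1.3e-05) within series 1 and by -1.25 ± 0.48 (adjusted p = 0.04) within series 2. Spdef, the goblet maturation factor downstream of it, fell 3.89-fold in the pooled fit. Capn9 and Bcas1, of the same list, had pooled log2 fold changes of -3.69 and -3.60, which places them among the 10 lowest of the genes named by size. The 4 members that rose were Ccl9, Galnt12 and Muc13 and Muc3, membrane mucins that enterocytes also make. Among the Notch ligands, which hold neighbouring cells back from the secretory fate, Dll4 rose from 8.26–24.1 CPM (median 11.4) to 21.8–92.8 CPM (median 49.9), a log2 fold change of 2.05 ± 0.31 (adjusted p = 3.4e-06).

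**Figure D3:**
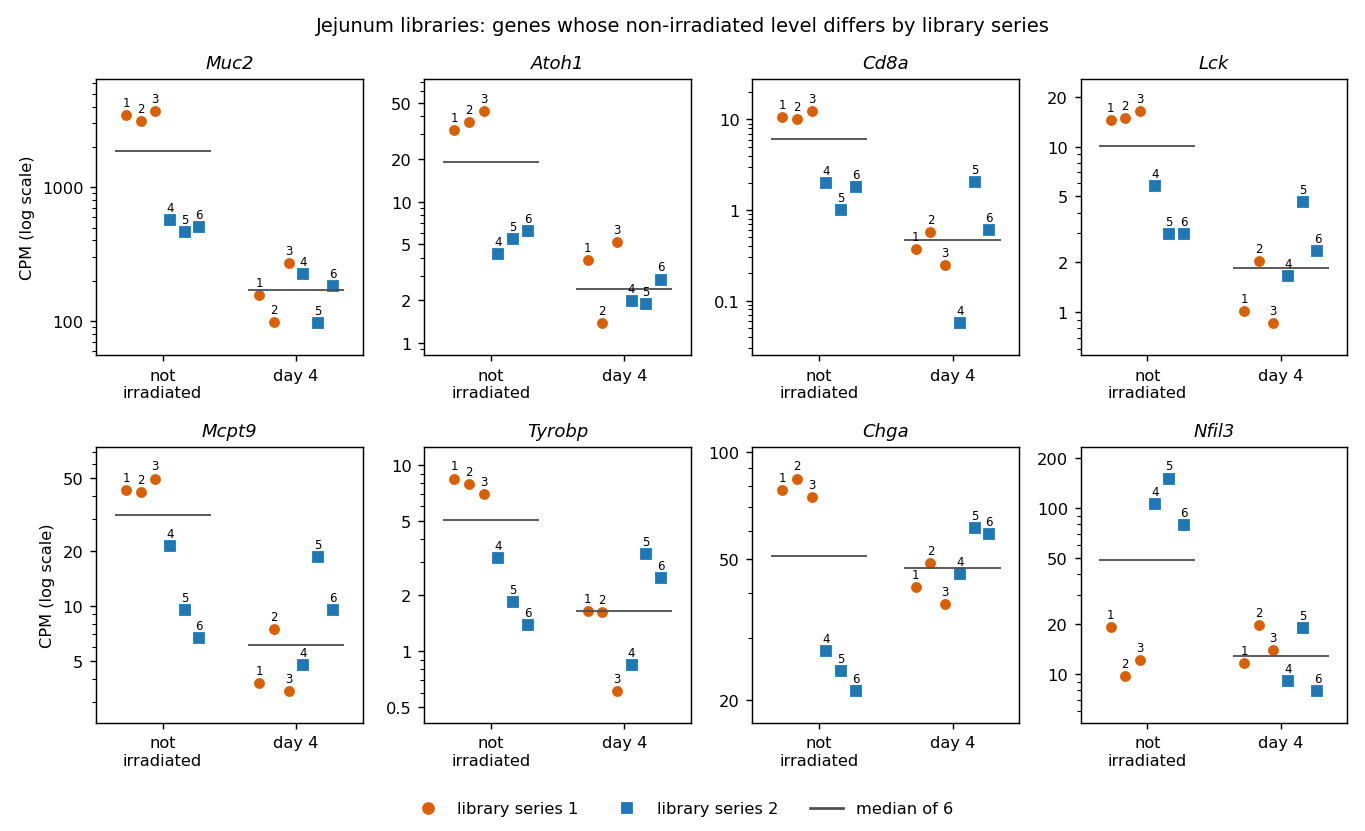
Levels of Muc2, Atoh1, Cd8a, Lck, Mcpt9, Tyrobp, Chga and Nfil3 in non-irradiated and day 4 jejunum by library, in CPM on a log axis, with library series 1 as circles, series 2 as squares and the median of 6 as a line. Control levels part by series in all 8 panels; irradiated Muc2 lies below the controls of both series, while irradiated Lck, Cd8a and Mcpt9 lie below the controls of series 1 and overlap those of series 2.

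Paneth, enteroendocrine and tuft cell genes were tested in the same way. Of the Paneth cell and antimicrobial genes, 2 of 13 rose and none fell in edgeR's test. Reg3g, a bactericidal lectin, lay at 118, 418, 658, 119.7, 2617 and 115 CPM in control rats 1 to 6, with rat 5 far above the others, and at 4912, 366, 1381, 7457, 4365 and 3896 CPM in the irradiated ones. Its log2 fold change of 2.47 ± 0.92 (adjusted p = 0.028) lost the call when any of 5 libraries was left out, for example at 2.19 with an adjusted p of 0.067 without irradiated library 1. Pla2g2a, a secreted antibacterial phospholipase of Paneth cells, rose 9.31-fold, but only 3 of the 6 irradiated rats lay above every control. Lyz2, a lysozyme, did not pass the test (log2 0.064, adjusted p = 0.92). No tested defensin gene of the list passed either, and the log2 fold changes of all of them were below 0. In enteroendocrine cells, which secrete gut hormones, the direction depended on the series: 1 rose and 5 fell within series 1, and 12 rose and 0 fell within series 2. Chga, the granule protein chromogranin A, lay at 78.4, 84.2, 74.7, 27.5, 24.2 and 21.2 CPM in controls and 41.8, 48.8, 37.4, 45.3, 61.3 and 58.7 CPM after irradiation. Its log2 fold change was -0.89 ± 0.35 (adjusted p = 0.057) within series 1 and 1.18 ± 0.35 (adjusted p = 0.0096) within series 2, and the difference passed the test (adjusted p = 0.0073). Tac1, which encodes substance P and is made by serotonin cells and neurons, rose in both series, by 2.90 ± 0.44 (adjusted p = 3.0e-05) and 2.7 ± 0.42 (adjusted p = 1.7e-05). Among tuft cell genes, 1 of 15 tested members rose and 3 fell (1 fell when control library 1, 2 or 3 or irradiated library 5 was left out); Dclk1, a tuft cell marker, did not pass (log2 -0.69, adjusted p = 0.19).

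T cell genes were lower after irradiation in the pooled fit, and this rested on series 1. Of the T cell and intraepithelial lymphocyte genes, 16 of 19 fell and 2 rose, with a median log2 fold change of -1.82. Within them, 2 rose and 16 fell within series 1, and 2 rose and 0 fell within series 2, and 14 had lower control levels in series 2. Cd8a, a coreceptor of cytotoxic T cells, lay at 10.7, 10.2, 12.5, 1.97, 0.993 and 1.80 CPM in control rats 1 to 6 and 0.372, 0.570, 0.245, 0.0566, 2.03 and 0.602 CPM in irradiated ones. The irradiated values of series 2 overlapped the controls of that series. Its log2 fold change was -4.83 ± 0.70 (adjusted p = 1.6e-05) within series 1 and -0.84 ± 0.63 (adjusted p = 0.3) within series 2 (adjusted p of the difference 0.0059). Lck, the T cell receptor kinase, gave -3.58 ± 0.41 (adjusted p = 6.3e-07) and -0.44 ± 0.37 (adjusted p = 0.36). Cd3e, part of the signalling unit of the T cell receptor, gave -4.90 ± 0.73 (adjusted p = 2.5e-05) and -0.18 ± 0.67 (adjusted p = 0.85). A further chain of that complex went against them: Cd3g rose from 5.61–8.26 CPM (median 7.35) to 96.0, 51.0, 53, 78.3, 21.9 and 21.5 CPM in irradiated rats 1 to 6, without overlap, by 3.27 ± 0.57 (adjusted p = 0.00018) within series 1 and 2.47 ± 0.56 (adjusted p = 0.001) within series 2. Eomes, a T-box factor of memory and cytotoxic lymphocytes, also rose, from 0–0.142 CPM (median 0.0318) to 0.407–6.51 CPM (median 1.63). Whether the reads at the Cd3g symbol come from T cells was not tested.

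Genes of other immune cells followed the split by series. In the macrophage and dendritic cell list, 1 rose and 10 fell within series 1, and 8 rose and 0 fell within series 2; the difference between the series passed the test for 12 members. Tyrobp, a signalling adaptor of myeloid cells, lay at 8.46, 7.88, 7.00, 3.18, 1.84 and 1.39 CPM in controls and 1.65, 1.63, 0.613, 0.849, 3.34 and 2.48 CPM after irradiation, for log2 fold changes of -2.58 ± 0.54 (adjusted p = 0.001) within series 1 and 0.051 ± 0.52 (adjusted p = 0.95) within series 2. The mast cell protease Mcpt9 fell within series 1, by -3.21 ± 0.55 (adjusted p = 0.00014), and gave -0.20 ± 0.51 (adjusted p = 0.78) within series 2. Jchain, the joining chain of secreted immunoglobulin A, lay at 8.27 to 16.1 CPM in controls of series 1 but at 0.213 to 0.486 CPM in those of series 2, against 0.163–0.674 CPM (median 0.464) after irradiation. Over the 3 immune lists of T cells, macrophages and mast cells, summed levels were 43.9–294 CPM, 106–374 CPM and 14.8–59.1 CPM in controls and 69.2–124 CPM, 145–181 CPM and 6.5–29.2 CPM at day 4. Cd14, the lipopolysaccharide coreceptor, rose in the pooled fit, with a log2 fold change of 3.19 ± 0.80 (adjusted p = 0.0017). S100a9, a neutrophil alarmin that inflamed epithelium also makes, had no count in controls and lay at 10.8, 0.0814, 0.429, 11.0, 2.09 and 0.535 CPM in irradiated rats 1 to 6, at least 140.3-fold higher. Other neutrophil genes did not follow it: Mmp9 and Ncf1 fell, with -2.50 ± 0.58 (adjusted p = 0.0028) and -1.94 ± 0.56 (adjusted p = 0.011) within series 1 and -0.46 ± 0.57 (adjusted p = 0.54) and -0.37 ± 0.56 (adjusted p = 0.62) within series 2.

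Interferon response genes rose, more within series 2 than within series 1. In the list, 24 of 40 tested members rose and 0 fell, with a median log2 fold change of 1.01; 7 rose within series 1 and 24 within series 2, and for 6 the response was larger in series 2. Many of these genes carry in their promoters the interferon-stimulated response element, which is bound by the STAT and IRF transcription factors. The core GAAANNGAAA, on either strand, was searched in promoters of 300 bases, from 250 before to 50 after the transcription start (RefSeq, build GRCr8). It stood in 20 of the 32 list members with a promoter in the table (62.5%), against 1312 of all 33469 promoters (3.92%). The share was 61.1% among members that rose and 61.5% among those that did not pass the test, so the motif did not part them. The 4 promoters below belong to the members with the smallest p-values among those that hold the motif, and the capitals mark it.
Cxcl10, chr14:15988816-15989115, plus strand: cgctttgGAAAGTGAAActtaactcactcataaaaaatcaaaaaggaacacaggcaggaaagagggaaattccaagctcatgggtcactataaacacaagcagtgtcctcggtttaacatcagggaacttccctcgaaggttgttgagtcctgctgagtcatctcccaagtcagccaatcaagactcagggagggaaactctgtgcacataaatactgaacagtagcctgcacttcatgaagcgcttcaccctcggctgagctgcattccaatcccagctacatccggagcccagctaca
Eif2ak2, chr6:21940904-21941203, plus strand: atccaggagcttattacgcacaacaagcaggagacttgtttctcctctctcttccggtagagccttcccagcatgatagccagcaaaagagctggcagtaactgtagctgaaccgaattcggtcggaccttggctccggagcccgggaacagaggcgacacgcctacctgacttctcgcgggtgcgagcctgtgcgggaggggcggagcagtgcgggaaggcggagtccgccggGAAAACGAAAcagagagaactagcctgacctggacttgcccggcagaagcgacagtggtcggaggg
Oasl2, chr12:47383136-47383435, minus strand: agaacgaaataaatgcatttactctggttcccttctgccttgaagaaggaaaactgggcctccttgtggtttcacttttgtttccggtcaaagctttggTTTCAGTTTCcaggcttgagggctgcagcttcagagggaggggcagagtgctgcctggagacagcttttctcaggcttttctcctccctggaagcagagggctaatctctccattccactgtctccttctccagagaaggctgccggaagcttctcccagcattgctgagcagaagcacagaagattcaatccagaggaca
Gbp2, chr2:234005477-234005776, plus strand: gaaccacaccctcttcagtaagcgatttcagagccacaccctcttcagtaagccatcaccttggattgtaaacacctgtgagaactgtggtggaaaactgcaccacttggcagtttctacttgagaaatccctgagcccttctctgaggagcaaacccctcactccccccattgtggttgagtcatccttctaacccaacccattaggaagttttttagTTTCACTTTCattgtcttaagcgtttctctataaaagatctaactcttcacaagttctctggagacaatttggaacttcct

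The motif begins 243 bases before the start of Cxcl10, 16 before that of Eif2ak2, 151 before that of Oasl2 and 31 before that of Gbp2; in the last 2 it lies on the opposite strand. Cxcl10, a chemokine that draws activated T cells, lay at 0.486–1.72 CPM (median 1.17) in controls and at 11.0–50.6 CPM (median 24.3) at day 4, with no overlap and a log2 fold change of 4.54 ± 0.47 (adjusted p = 5.1e-09). Its relatives Cxcl9 and Cxcl11, which share the receptor CXCR3, rose too, Cxcl11 from 12.7–19.8 CPM (median 16.4) to 26.4–70.1 CPM (median 50.1). Eif2ak2, which encodes the RNA-sensing kinase PKR, rose from 53.5–59.1 CPM (median 54.3) to 67.9–134 CPM (median 104), a log2 fold change of 0.92 ± 0.13 (adjusted p = 8.2e-07). It did so by 0.65 ± 0.16 (adjusted p = 0.0044) within series 1 and 1.18 ± 0.16 (adjusted p = 3.5e-06) within series 2. A match of these letters describes the promoter and does not show that a factor binds there.

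Antigen presentation genes did not follow the interferon genes as a block. In the list of MHC class I and immunoproteasome genes, 3 of 16 tested members rose and 8 fell. Nlrc5, the transcriptional activator of MHC class I, rose 2.32-fold, while the immunoproteasome subunits Psmb8 and Psmb10 fell, with log2 fold changes of -1.06 ± 0.31 (adjusted p = 0.0065) and -1.01 ± 0.27 (adjusted p = 0.0035). The count of falls was 4 to 5 when irradiated library 1 or 4 or control library 5 was left out, and within series 1 none passed. Of the MHC class II genes, 3 of 12 rose and 1, the lysosomal protease Ctss, fell. RT1-Db1, a beta chain of rat MHC class II, lay at 78.9–167 CPM (median 118) in controls and at 72.4, 206, 114, 237, 439.7 and 540.3 CPM in irradiated rats 1 to 6, higher in rats 4 to 6. Its log2 fold change was -0.0042 ± 0.56 (adjusted p = 1) within series 1 and 1.94 ± 0.58 (adjusted p = 0.0091) within series 2. The pooled call (log2 1.18, adjusted p = 0.047) was lost without any of 8 libraries, lowest at 0.85 with an adjusted p of 0.15 without irradiated library 6.

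Many inflammatory genes rose in both series, and which cells made their RNA was not tested. Among cytokines and mediators, 19 of 25 tested members rose and 0 fell, with a median log2 fold change of 1.71; 15 rose within series 1 and 16 within series 2. Nos2, the inducible nitric oxide synthase, lay at 0–0.254 CPM (median 0.0355) in controls and 66.4, 3.58, 3.68, 23.3, 17.2 and 11.5 CPM in irradiated rats 1 to 6, a log2 fold change of 7.98 ± 1.27 (adjusted p = 8.5e-06). Duox2, which makes hydrogen peroxide at the epithelial surface, rose from 0.372–1.72 CPM (median 0.505) to 3.5–199 CPM (median 39.2), and Lcn2, the iron-sequestering lipocalin, from 0.0636–0.355 CPM (median 0.235) to 1.14–25.9 CPM (median 9.73). In all 3, rats 2 and 3 held the lowest irradiated values and still lay above every control. The neutrophil chemokine Cxcl1 had 1 count in all controls and 112 after irradiation, a ratio of 106, with an exact 95% counting interval from 18.6 to 4213. Il1b, a cytokine of activated macrophages, did not pass (log2 -0.45, adjusted p = 0.56). Several genes of the list, including the interleukins Il6, Il17a and Il22, were too low to be tested.

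Some stress and cell death genes changed strongly, without a common direction in every list. Ripk3, the kinase of necroptosis, rose without overlap from 78.5–126 CPM (median 82.6) to 181–1262 CPM (median 650.2), a log2 fold change of 2.79 ± 0.37 (adjusted p = 5.7e-07). Pycard, the inflammasome adaptor ASC, fell, by -0.67 ± 0.59 (adjusted p = 0.42) within series 1 and -3.03 ± 0.63 (adjusted p = 0.00047) within series 2. Over the list of pyroptosis and necroptosis genes, 3 of 14 tested members rose and 4 fell, beside 25.0% and 18.9% of all genes tested. Gpx2, the gastrointestinal glutathione peroxidase of crypt cells, lay at 57.9, 103, 98.8, 88.9, 365 and 66.5 CPM in control rats 1 to 6 and 2159, 393, 423, 2573, 2373 and 1368 CPM in irradiated ones, a log2 fold change of 3.57 ± 0.56 (adjusted p = 7.7e-06). Rat 5 held the highest control value, and all irradiated values lay above it. Txnrd1, a thioredoxin reductase and NRF2 target, rose 2.21-fold. The NRF2 list as a whole was mixed, as 6 of 18 tested members rose and 2 fell, while 44.0% of all genes passed the test in either direction. Chac1, a glutathione-degrading enzyme induced by the integrated stress response, rose from 0.0694–0.558 CPM (median 0.299) to 3.37–14.7 CPM (median 8.98), and Asns, asparagine synthetase of the same response, 5.01-fold. Of that list, 10 of 21 tested members rose and 1 fell; 6 rose when control library 1 or 4, or irradiated library 4, was left out. Hspb1, a small heat shock protein, rose from 0–0.372 CPM (median 0.165) to 3.61, 6.51, 1.72, 49.7, 11.5 and 33.9 CPM in irradiated rats 1 to 6, with a log2 fold change of 6.04 ± 1.06 (adjusted p = 3.4e-05).

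Complement and clock genes were tested as well. In the complement list, 7 of 15 tested members rose and 2 fell; Cfb, the protease of the alternative pathway, rose 2.85-fold, and the members that fell were Cfd and Pigr. The falls numbered 5 when control library 4, 5 or 6 was left out. Within the list, 4 rose and 4 fell within series 1, and 9 rose and 1 fell within series 2, and for 4 members the difference between the series passed the test. Clock genes parted by series before irradiation: of the 17 tested, 7 were lower and 3 higher in controls of series 2. Nfil3, a clock-controlled repressor, lay at 19.2, 9.74, 12.1, 106, 151 and 78.9 CPM in control rats 1 to 6 and 11.7, 19.6, 14.0, 9.00, 18.8 and 7.89 CPM in irradiated ones, so that its log2 fold change was 0.14 ± 0.47 (adjusted p = 0.85) within series 1 and -3.23 ± 0.51 (adjusted p = 2.0e-05) within series 2. Per1, a core clock repressor, went the other way, by -2.35 ± 0.48 (adjusted p = 0.00092) within series 1 and 0.49 ± 0.47 (adjusted p = 0.42) within series 2. The time of day of tissue collection is not in the labels.

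Most markers of connective tissue did not pass the test in the pooled fit. In the fibroblast and matrix list 4 of 27 members rose, among them Plat, Plau and Timp1, which act in plasminogen activation and protease inhibition, and 1, Vim, fell. The series parted: 3 rose and 1 fell within series 1 (median log2 fold change -0.51), and 7 rose and 0 fell within series 2 (median 2.89). Control levels of 7 members were lower in series 2, and for 2 members the difference in response passed the test. Timp1, a metalloproteinase inhibitor, rose from 1.89–5.96 CPM (median 3.03) to 9.99–82.1 CPM (median 37.0). No collagen gene passed in the pooled fit. Col1a1, the main fibrillar collagen chain, lay at 1.89, 2.23, 0.509, 0, 0 and 0 CPM in control rats 1 to 6, at 0 throughout series 2, and at 0.903, 0.977, 0.552, 1.25, 1.64 and 0.335 CPM in irradiated ones. Smooth muscle genes summed to 167–216 CPM in controls and 142–245 CPM at day 4. Of that list 4 of 13 rose, 2 without any of control libraries 4 to 6 or irradiated library 5. Myl9, a contractile light chain, rose by 1.5 ± 0.52 (adjusted p = 0.032) within series 1 and 3.62 ± 0.58 (adjusted p = 2.7e-05) within series 2. Exocrine pancreas genes, which the jejunum hardly makes, summed to 5.97–10.2 CPM in controls and 8.77–46.2 CPM after irradiation, and 3 of 4 rose. Pnliprp2, a lipase of that list, made up most of this sum: 3.68–9.16 CPM (median 4.99) against 7.05–42.9 CPM (median 26.6). Gastric-type genes, a sign of metaplasia after injury in other settings, rose for 6 of 12, 3 without irradiated library 4 and none within series 1 or with only the 12 libraries in the fit, from a sum of 2.86–10.4 CPM to 6.93–21.3 CPM.

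The largest falls by size included transporters and calcium-binding proteins of unlike function. Cabp2, a calcium-binding protein, lay at 21.2–43.6 CPM (median 28.7) in controls and 0.566–6.93 CPM (median 0.792) at day 4, without overlap, for a log2 fold change of -4.36 ± 0.65 (adjusted p = 3.1e-06). Slc37a2, a sugar phosphate exchanger of the endoplasmic reticulum, followed the order of the rats, with 1.75, 71.9, 114, 0.510, 5.36 and 12.0 CPM in rats 1 to 6 against 170.0–417 CPM (median 289). Slc22a7, an organic anion transporter, had a log2 fold change of -4.94 ± 0.79 (adjusted p = 1.0e-05). Fam111a, a protease of DNA replication, varied widely: irradiated rats 1 to 6 held 2.66, 0.163, 319, 35.6, 1.11 and 114 CPM against 289–1430.2 CPM (median 613) in controls, and its fall passed the test at -3.61 ± 1.24 (adjusted p = 0.018). Among the largest rises, Fst, the activin antagonist follistatin, lay at 9.62, 0.244, 0.184, 16.8, 4.19 and 3.95 CPM against 0–0.122 CPM (median 0.0310), and Adam8, a metalloprotease of inflamed tissue, rose from 0.127–0.972 CPM (median 0.363) to 3.74–104 CPM (median 34.0).

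At day 7 the untreated irradiated jejunum differed from that of day 4 in 5128 genes (41.0%), of which 2543 were higher and 2585 lower at day 7. This contrast and the one above share the 6 libraries of day 4, so values are given side by side. Mitosis genes rose further: 24 of 24 were higher at day 7, and Mki67 reached 46.8–131 CPM (median 79.9), a day 7 over day 4 log2 fold change of 1.66 ± 0.40 (adjusted p = 0.0014). Olfm4, low at day 4, stood at 45.8–312 CPM (median 85.0), with a change of 5.53 ± 0.96 (adjusted p = 4.9e-05). Cholesterol synthesis genes were higher at day 7 for 21 of 23, Fdft1 at 44.2–94.1 CPM (median 63.8). Cdx1 lay at 20.4–33.5 CPM (median 24.2) and Tfrc at 102–224 CPM (median 151), both higher than at day 4. In the controls, Olfm4 had lain at 5.60–33.0 CPM (median 9.85) and Tfrc at 7.00–20.7 CPM (median 13.6), so that both stood above every control library at day 7.

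The p53 targets were lower at day 7 than at day 4 in 12 of 18 arrest genes and 10 of 15 death genes. Mdm2 lay at 46.0–57.7 CPM (median 55.3), a change of -1.26 ± 0.15 (adjusted p = 1.7e-07), whereas Ccng1 was still at 71.8–227 CPM (median 169). Interferon genes were lower in 22 of 40 and inflammatory genes in 13 of 25. Tuft cell genes fell in 10 of 15, with Dclk1 changed by -3.64 ± 0.51 (adjusted p = 2.7e-06). MHC class II genes fell in 9 of 12, RT1-Db1 to 3.03–30.7 CPM (median 14.3), a change of -4.20 ± 0.55 (adjusted p = 1.1e-06). T cell genes fell in 15 of 19. Ripk3 was lower again, at 82.0–176 CPM (median 133) against 78.5–126 CPM (median 82.6) in controls. Ly6al, Cldn2 and Cd59 did not pass this test and stood at 83.7–1855 CPM (median 491), 63.3–469 CPM (median 262) and 145–425 CPM (median 323).

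**Figure D4:**
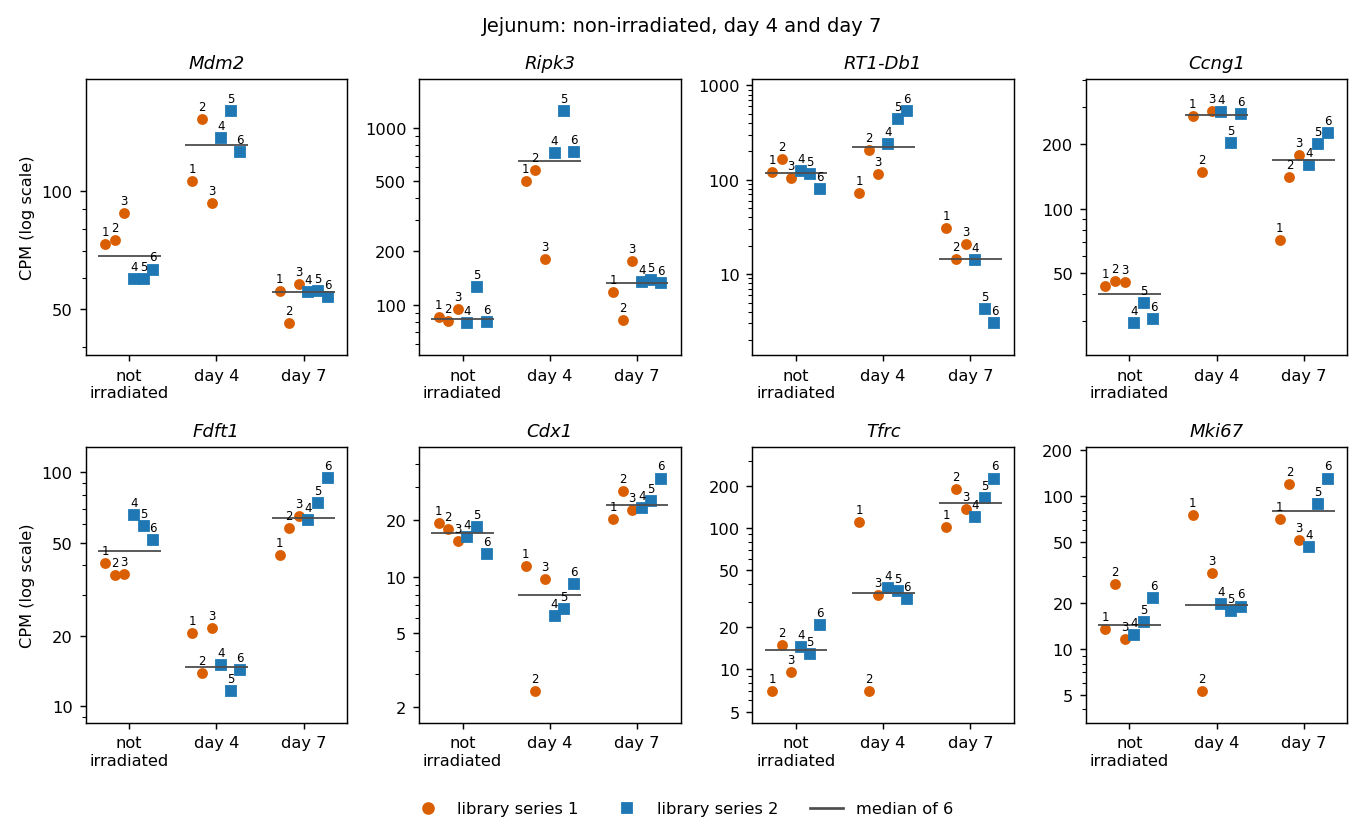
Levels of Mdm2, Ripk3, RT1-Db1, Ccng1, Fdft1, Cdx1, Tfrc and Mki67 in jejunum without irradiation, at day 4 and at day 7, in CPM on a log axis, with single libraries as numbered points coloured by library series and the median of 6 as a line. RT1-Db1 drops at day 7 to 3.03–30.7 CPM (median 14.3), below all control libraries, while Mki67 and Tfrc have their highest medians at day 7.

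The day 4 response of the jejunum was set against that of the colon in a fit of 84 libraries of both tissues, in which an interaction term tests the difference. It passed for 2994 of 13741 genes (21.8%), with the jejunal response above that of the colon for 1865 (13.6%) and below it for 1129 (8.22%). The median difference over all genes was 0.107 with TMM factors and 0.0016 with DESeq2's size factors, so small differences depend on the scaling. Whether the tissues came from the same rats is not given. Each colon library has a jejunum library of the same group, series and library number, but the fit did not pair them. Ly6al, nearly silent in the control jejunum, was already at 2475–3663 CPM (median 3190.1) in the non-irradiated colon and lay at 3914–6288 CPM (median 4905) in the irradiated colon. Goblet genes parted the tissues: for 12 of 21 the jejunal response was lower, with 4 falling and 2 rising in the colon. The jejunal medians of the goblet list were -2.75 within series 1 and -0.76 within series 2, against -0.47 in the colon. Macrophage genes were lower in the jejunal response for 10 of 20, and 7 rose in the colon. This rested on pooled series: the jejunal medians were -1.68 within series 1 and 1.64 within series 2, against 1.195 in the colon. The tissue difference was not tested within each series. Fibroblast and matrix genes, of which 22 rose in the colon, differed for 4. Their jejunal medians were -0.51 within series 1 and 2.89 within series 2, against 2.525 in the colon. Interferon genes responded more in the jejunum for 11 of 40 and less for 3. Ribosome biogenesis genes responded more for 7 of 22. In the p53 lists most differences lay below the colon, with 1 above and 3 below among 18 arrest genes and 0 above and 4 below among 15 death genes. Over all genes 13.6% lay above and 8.22% below. List medians were 0.72 in the jejunum and 1.01 in the colon for arrest genes, and 0.30 and 0.85 for death genes. The nuclear respiratory chain, with 17 genes falling in the colon, differed for 0 above and 0 below of 26. The colon libraries of both series entered this fit with their own series term.

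**Figure D5:**
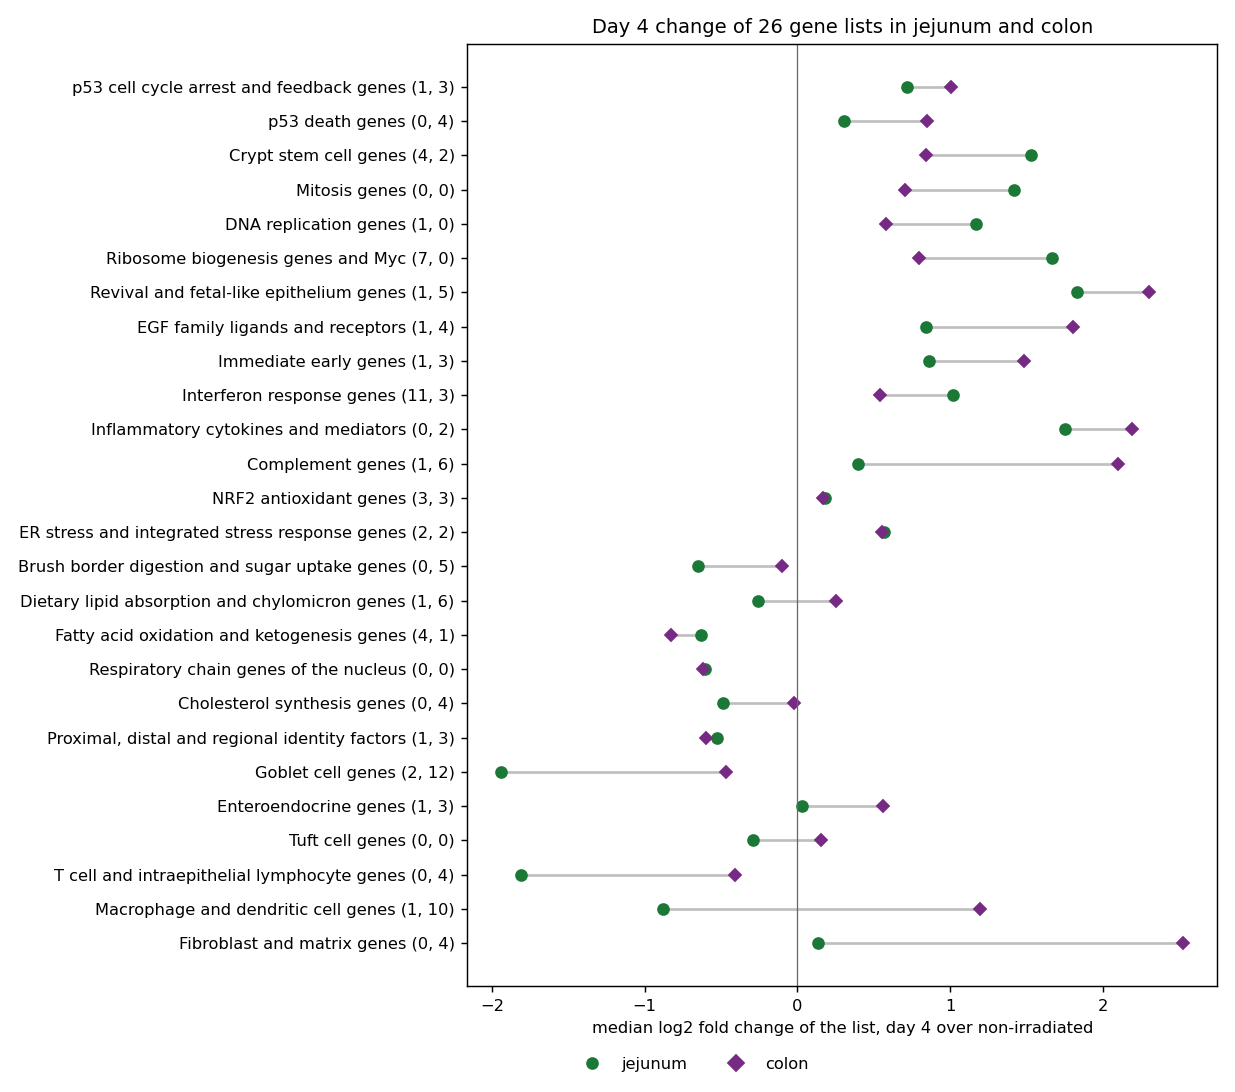
Median log2 fold change of day 4 over non-irradiated tissue for the members of gene lists, in jejunum (circles) and colon (diamonds), both from the fit of 84 libraries; brackets give the number of members whose jejunal response was above and below that of the colon. Goblet cell and T cell lists are low in the jejunum and nearer 0 in the colon, and the fibroblast list is near 0 in the jejunum and high in the colon. The jejunal values pool both library series. In the jejunum fit split by series, medians within series 1 and series 2 were -2.955 and -0.22 for T cell genes. They were -0.51 and 2.89 for fibroblast and matrix genes.

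Jejunum from irradiated rats given water as an oral vehicle gives another set of 6 rats at day 4. It shares the non-irradiated controls, so only levels are set side by side. Ccng1 lay at 238–378 CPM (median 271) in these rats, Axin2 at 24.2–37.7 CPM (median 32.5) and Ly6al at 53.5–1958 CPM (median 496), against 148–287 CPM (median 273), 20.5–46.7 CPM (median 31.4) and 179–1847 CPM (median 802) in the untreated irradiated rats. Lct again spanned a wide range, 242–1469.5 CPM (median 629), as it did in the untreated rats. Muc2 lay at 280.0–946 CPM (median 368), above all of the untreated irradiated rats at 96.6–271 CPM (median 170.0) and overlapping the non-irradiated range of 460.2–3737 CPM (median 1852). Ripk3 lay at 98.0–1004 CPM (median 359.5) and overlapped both the untreated irradiated rats, at 181–1262 CPM (median 650.2), and the controls, at 78.5–126 CPM (median 82.6). Cd3g, at 23.5–89.0 CPM (median 56.0), was again above the non-irradiated range of 5.61–8.26 CPM (median 7.35).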

How the data were processed

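The deposited table holds raw read counts per gene symbol for 21837 genes, with no normalization. Reads were aligned with STAR 2.7.10a to build mRatBN7.2, per the submitters' processing notes; no source used here names the counter, the annotation or the strandedness. Library columns were matched to samples by the library name in the sample description. All 12 libraries differed from one another.

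The counts were tested with edgeR 4.0.16 (limma 3.58.1, R 4.3.3): TMM factors, filterByExpr by group, and quasi-likelihood F tests over 42 jejunum libraries in 7 groups, with library series as covariate, and Benjamini-Hochberg adjusted p under 0.05. These groups include rats given a Kushen extract by mouth, and rats given the oral vehicle and collected at day 7. Their spread between rats entered the p-values of this fit. The SE is the fold change over the square root of F. DESeq2 1.42.0 was an alternative, and the code was checked on simulated counts. The fit split by series was chosen after seeing the data. A p-value from these samples measures the spread between rats of one study; totals of 17725569 to 19738574 limit only low genes. Intervals and floors cover counting error only.

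Replicate numbers were not used to pair the samples in the main fit, since irradiated and non-irradiated libraries come from different rats. Deviations of same-numbered libraries from their group means correlated between -0.309 and -0.0927, which cannot speak to a pairing of tissues. Genes are named by rule: the 10 highest and 10 lowest changes among called genes with at least 5 CPM in a group, up to 4 called members per list by p-value, and a fixed panel. Members named beyond the rule, without values, are those that moved against or made up a small count. The comparison, the lists and the panel were chosen with earlier results of these data known. Promoters came from RefSeq (GRCr8), and 5 list members were found under another symbol. Gene positions were not used, so overlapping genes and close copies may share reads. Results for a few genes are not reported here.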

Additional observations from a re-analysis of the deposited data

Results flagged for a closer look

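In 33 of 262 groups of 6 libraries, 2 for each of 131 genes named in the text, 1 library stood apart from the others by Dixon's 95% criterion (a gap of over 0.625 of the range). This is 12.6%. The criterion flags about 1 group in 20 by chance only for normally distributed values, and it was applied to CPM without a log. All flagged values but that of Axin2 were high, so the 12.6% is not a measure of an excess. Control library 1 was high for Ly6al at 1.03 CPM and Myl9 at 4.51 CPM, and low for Axin2 at 3.71 CPM. Control library 2 was high for Cxcl9 at 0.372 CPM, Lyz2 at 131 CPM, Pla2g2a at 24.8 CPM and Plau at 4.71 CPM. Control library 3 was high for Dll4 at 24.1 CPM, Ereg at 3.75 CPM and Fgf19 at 0.0636 CPM. Control library 4 was high for Cxcl1 at 0.0757 CPM. Control library 5 was high for Gpx2 at 365 CPM, Reg3g at 2617 CPM, Ripk3 at 126 CPM and Timp1 at 5.96 CPM. Control library 6 was high for Adam8 at 0.972 CPM and Ascl2 at 1.18 CPM. Irradiated library 1 was high for Ccnb1 at 35.1 CPM, Il1b at 4.57 CPM, Mki67 at 75.6 CPM, Nhp2 at 83.5 CPM, Nos2 at 66.4 CPM and Tfrc at 111 CPM. Irradiated library 3 was high for Atp5f1a at 1971 CPM, Cabp2 at 6.93 CPM, Fabp6 at 0.368 CPM, Fam111a at 319 CPM, Psmb10 at 150.4 CPM, Pycard at 91.0 CPM and Slc22a7 at 1.84 CPM. Irradiated library 4 was high for Cybrd1 at 19.0 CPM and Epgn at 1.36 CPM. Irradiated library 5 was high for Cd8a at 2.03 CPM.

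The irradiation response at day 4 differed between jejunum and colon for 42 of the named genes, by the interaction term of the fit of both tissues (edgeR, 6 libraries per group and tissue). The fit did not pair libraries of the tissues. For some of these genes, such as Muc2 and Cd8a, the jejunal response also differed between the library series. The difference, jejunal log2 fold change minus that of the colon, was positive for Abcc1 1.69 (adjusted p = 0.0025), Aldh1a1 4.81 (adjusted p = 6.4e-06), Cd14 2.56 (adjusted p = 0.019), Cd59 1.61 (adjusted p = 0.00028), Cldn2 2.26 (adjusted p = 0.0033), Cpt1a 1.02 (adjusted p = 0.0012), Cybrd1 3.30 (adjusted p = 0.024) and Eif2ak2 0.48 (adjusted p = 0.032). It was also positive for Fgf19 10.54 (adjusted p = 0.00038), Isx 1.85 (adjusted p = 2.7e-06), Kcnq1 1.55 (adjusted p = 0.0049), Ly6al 9.56 (adjusted p = 5.2e-16), Nhp2 1.26 (adjusted p = 0.021), Rrp12 1.42 (adjusted p = 0.016), Slc12a2 2.93 (adjusted p = 1.0e-05) and Spry4 1.55 (adjusted p = 0.036). It was also positive for Tfrc 1.71 (adjusted p = 0.0045). It was negative for Atoh1 -2.27 (adjusted p = 0.0026), Bcas1 -3.45 (adjusted p = 4.5e-06), Cabp2 -3.37 (adjusted p = 0.0031), Capn9 -2.79 (adjusted p = 0.00046), Cd3e -3.15 (adjusted p = 0.0058), Cd8a -3.14 (adjusted p = 0.0068), Cxcl11 -1.34 (adjusted p = 0.018), Ereg -1.01 (adjusted p = 0.046) and Fdft1 -1.12 (adjusted p = 0.022). Further negative values were those of Il1b -2.60 (adjusted p = 0.016), Jchain -4.12 (adjusted p = 0.0034), Lck -2.25 (adjusted p = 6.5e-05), Muc2 -3.73 (adjusted p = 1.1e-06), Nfil3 -1.70 (adjusted p = 0.033), Olfm4 -5.23 (adjusted p = 0.00046), Pla2g2a -4.76 (adjusted p = 0.0031), Plau -3.14 (adjusted p = 0.017) and Plk2 -2.21 (adjusted p = 0.0071). Further negative values were those of Psmb10 -1.42 (adjusted p = 0.0012), Psmb8 -1.73 (adjusted p = 0.00054), Scarb1 -2.09 (adjusted p = 1.4e-07), Slc37a2 -5.63 (adjusted p = 0.011), Spdef -1.47 (adjusted p = 0.01), Srebf2 -0.57 (adjusted p = 0.032) and Tyrobp -2.01 (adjusted p = 0.01). For Fgf19, whose non-irradiated jejunum held 1 count, the value depends on the prior count of the fit. Olfm4 lay at 0.263–2.23 CPM (median 0.625) in non-irradiated and 0.935–28.8 CPM (median 2.36) in irradiated colon, and Muc2 at 1914–6352 CPM (median 4462) and 1393–13232 CPM (median 4862).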

How the results depend on the processing

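The day 4 count of 5495 genes stayed within 1.5 times under DESeq2 (6056), RLE factors, no filter on low counts, no library series term, mitochondrial genes left out and their share as a covariate. It fell to 3496 with only the 12 libraries in the fit, to 1880 with library series 1 alone, to 3651 at an adjusted p under 0.01 and to 2716 when a 2-fold change was also required, and was 5495 with series 2 alone. Leaving out 1 library gave 4539 (irradiated library 1) to 6018 (irradiated library 2). With the replicate block the counts were 5302 for day 4, 4828 against 5128 for day 7 over day 4 and 2859 against 2994 for the tissues; the labels tie no source to the numbers, and no library correlated best with its own number. Other alternatives moved the last 2 counts by less than 1.5 times, and the series difference passed for 1557 genes, 1535 with RLE factors and 1283 with no filter. Scaling mattered for the tissues, where TMM gave a median difference of 0.107 and 62.3% of calls higher, against 0.00159 and 56.5% with DESeq2. Of 189 called genes among the 200 named by the rule, 169 kept the call without each single library in turn and 84 under every alternative. With series 2 alone the log2 fold change reversed for Chga (1.18), Col1a1 (7.41), Fcer1g (0.33), Jchain (0.49), Per1 (0.49) and Tyrobp (0.050), and with series 1 alone for Nfil3 (0.13), RT1-Db1 (-0.020) and Zbtb46 (-0.11); the cause was not tested. The Col1a1 value depends on the prior count of the fit, since its 3 control libraries of series 2 hold no count. Genes with a few counts per library are limited by counting error.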

Other observations

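Transport genes outside sugar and lipid uptake moved in both directions. Of the ion and water transport genes, 2 of 19 rose and 3 fell, 6 when irradiated library 3 was left out. Slc26a3, the chloride-bicarbonate exchanger of villus cells, fell 2.07-fold, and Kcnq1, a potassium channel that supports chloride secretion, rose 2.61-fold. Among vitamin, mineral and iron genes, 6 of 18 tested members rose and 3 fell. Cybrd1, the ferric reductase that precedes iron uptake, lay at 0–0.558 CPM (median 0.101) in controls and 6.32, 0.407, 0.306, 19.0, 5.95 and 5.02 CPM in irradiated rats 1 to 6, and rats 2 and 3 lay within the control range. Aldh1a1, which makes retinoic acid from retinal, rose by 3.79 ± 0.51 (adjusted p = 6.5e-06) within series 1 and 1.41 ± 0.46 (adjusted p = 0.018) within series 2, and its controls lay at 8.95, 9.74, 11.1, 38.1, 24.8 and 32.4 CPM.

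Heat shock genes rose for 6 of 12 members, and none fell in edgeR's fit, in DESeq2 or at an unadjusted p under 0.05. With only the 12 libraries in the fit 1 rose, and with series 1 alone none. Hspd1, the mitochondrial chaperonin, lay at 487, 49.2, 233, 219, 161 and 178 CPM in irradiated rats 1 to 6 against 61.2–128 CPM (median 99.8) in controls; rat 2 lay below every control and the other 5 above. Dnajb1, a cochaperone of Hsp70, gave 0.11 ± 0.35 (adjusted p = 0.85) within series 1 and 1.74 ± 0.36 (adjusted p = 0.00043) within series 2, and its pooled call was lost without irradiated library 5, at 0.61 with an adjusted p of 0.096. Hmox1, heme oxygenase, rose 2.30-fold, and Abcc1, an efflux pump for glutathione conjugates, 4.85-fold. Fabp6, the bile acid carrier of the ileum, lay at 8.46, 0.248, 0.0636, 0.530, 0.709 and 8.75 CPM in control rats 1 to 6 and 0.106, 0, 0.368, 0.113, 0 and 0.0669 CPM in irradiated ones, so that control rats 1 and 6 held nearly all of its signal. At day 7 it lay at 0.703–16.4 CPM (median 6.44).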
